A study of Homo sapiens with 24 samples.

Results

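The comparison of both drugs with solvent covers every gene of the authors' deposited table that has a Wald statistic, which is 29639 of 29639 genes. Of the 24 samples of the series 12 carry these treatments, and the deposited comparison, as read below, rests on 6 of them. The treated cells received SGI-110 and dasatinib together for 5 days, and the control cells received DMSO, the solvent of both stocks, for the same time. Both treatments were given to Rh30, labelled as alveolar rhabdomyosarcoma, and to RD, labelled as embryonal rhabdomyosarcoma, with 3 biological replicates per line. Cells treated for 5 days with SGI-110 alone and cells treated with dasatinib alone are used below only to show where the drug pair differed from its parts. The labels give 0.5 µM as the dose of SGI-110 and give no separate dose for dasatinib. Each line is a tumour cell line grown in serum-containing medium without other cell types, so the values describe cultured cells and not tumours. RNA was sequenced as poly(A)-selected, strand-marked pairs of 75 bases.

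Only the authors' own comparisons are used here, with no value per library, so the level of a gene in each sample, the depth of each sample and counting intervals cannot be shown. The tables name no cell line. Their largest standard error was 6.01 log2. In a fit that holds all 24 libraries, 3 libraries per group give this size (6.01) and 6 give 4.25. Each change below is therefore read as that of 1 line, which is not named. This reading rests on the assumption of such a fit, which the labels do not state. Under it the mean counts also include the other line, so they can differ from the levels in the compared cells. Each change is a difference of log2 levels with its standard error after the ± sign. The standard errors, the mean normalised counts over all libraries and the adjusted p-values are copied from the authors' deposited table, and the change is the deposited Wald statistic times its standard error. Genes "rose" or "fell" when the deposited adjusted p was under 0.05. A gene "had no measurable level" in a group whose own standard error reached 1.17 log2, the value reached by 3 libraries at 0.5 counts each. A wide spread between libraries can give the same value, and no change against such a group is printed.

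SGI-110, also called guadecitabine, releases the nucleoside analogue decitabine, which is built into replicating DNA and traps the DNA methyltransferases, so that methylation is lost as cells divide. Genes that depend on promoter methylation for silencing, such as germ cell and cancer-testis genes, are the best known to respond, and RNA from derepressed repeats is known to set off interferon signalling in many cell types. Dasatinib blocks the ATP site of SRC family and ABL kinases and of several receptor kinases, which pass signals from integrins and growth factors to the cytoskeleton. Rhabdomyosarcoma cells express the myogenic regulators of skeletal muscle but stop short of full differentiation, and alveolar tumours often carry the fusion protein PAX3-FOXO1.

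Both drugs together moved a large share of all genes. Of 27915 genes with an adjusted p, 8326 were higher with both drugs than in DMSO, which is 29.8%, and 4915 were lower, which is 17.6% (the authors' deposited Wald test). These shares are the background against which the counts of the gene groups below are read. Counts of members that rose include any with no measurable level in DMSO, which could only be higher and add no support. The shares depended on the mean count: 1.79% of genes with a mean count under 10 were lower, 13.6% at 10 to 100, 31.5% at 100 to 1000 and 37.9% above 1000, while 18.8%, 41.4%, 34.4% and 34.3% were higher in the same order. Most gene groups below have median mean counts above 100, and for them a share lower of 31.5% to 37.9% is that of all genes at such counts. With SGI-110 alone 30.4% of 28489 genes were higher than in DMSO and 17.1% lower, and with dasatinib alone 17.8% of 20445 were higher and 13.2% lower, in the authors' deposited tables. These single-drug shares, and those of the direct comparisons below, were not split by mean count. Rises were much larger than falls. Of the genes that rose, 2381 had no measurable level in DMSO, and the other 5945 had a median rise of 0.82 log2 with quartiles of 0.38 and 2.15. Of these 5945 genes, 1613 rose by at least 2 log2 and 274 by at least 5 log2. The 4878 genes that fell and were measured in both groups had a median of -0.56 with quartiles of -0.92 and -0.35. Of these, 193 fell by at least 2 log2 and 0 by at least 5 log2. A further 37 genes were lower with no measurable level in the combination. The median change of the 11759 genes with a mean count of at least 100 was -0.0014 log2, so rises and falls are relative to a centre close to 0. The median standard error was 0.101 log2 for genes with mean counts of 100 to 1000 and 0.065 above 1000.

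**Figure D1:**
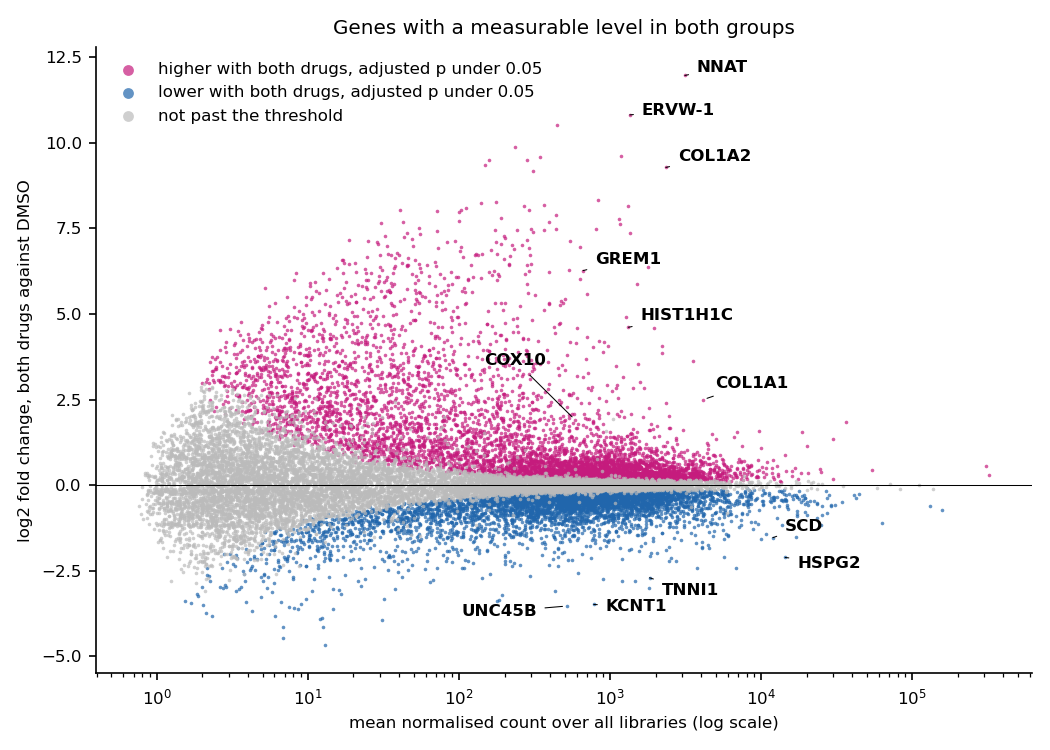
Change with both drugs against DMSO (log2, vertical axis) plotted against mean normalised count (log axis) for genes measured in both groups, with genes past an adjusted p of 0.05 coloured by direction and some of the genes described in the text labelled. Rises reach 11.97 log2 (NNAT), while the falls end at -3.53 (UNC45B) among genes with a mean count of at least 100.

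The largest rise among genes measured in both groups was that of NNAT, an imprinted gene encoding the membrane protein neuronatin (GRCh38, chromosome 20, 37521206 to 37523693). It rose by 11.97 ± 0.72 log2 (the authors' deposited table, adjusted p = 1.9e-59). ERVW-1, the retroviral envelope gene that encodes syncytin-1 (chromosome 7, 92468380 to 92477986), rose by 10.82 ± 0.46, and COL1A2, the second chain gene of type I collagen (chromosome 7, 94394561 to 94431232), rose by 9.28 ± 0.51, in the authors' deposited table. Other large rises included the testis chaperone gene HSPA2 (9.58 ± 0.84), the cathepsin gene CTSZ (9.49 ± 1.02), the chromatoid body gene TDRD6 (9.51 ± 1.03) and the testis transcription factor gene TAF7L (9.37 ± 1.03). SSX3 (10.51 ± 0.84) and PAGE2B (9.88 ± 1.02) belong to families of near-identical copies whose reads the counting could split, so their sizes are uncertain. The pseudogene ANKRD26P1 rose by 9.61 ± 1.02. These standard errors are several times the median standard error of genes at such counts.

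The largest statistics belonged to genes that DMSO cells expressed at firmer levels. GREM1, a secreted inhibitor of bone morphogenetic proteins (chromosome 15, 32717974 to 32745107), rose by 6.27 ± 0.15, a 77.0-fold rise. HIST1H1C, a linker histone gene (chromosome 6, 26055787 to 26056428), rose by 4.61 ± 0.11 (24.5-fold), and TXNIP, the inhibitor of thioredoxin (chromosome 1, 145992435 to 145996600), by 3.64 ± 0.10 (12.4-fold), from the authors' deposited table. The long non-coding RNA MIAT rose by 5.60 ± 0.14, the matrix protein gene TGFBI by 4.17 ± 0.11, ACRC by 8.14 ± 0.23 and the adaptor gene SHC1 by 1.67 ± 0.05. TXNIP also rose with dasatinib alone: its change was 3.64 with both drugs, 3.81 ± 0.10 with SGI-110 alone and 3.47 ± 0.10 with dasatinib alone, and the drug pair differed from neither single drug at the threshold (-0.18 ± 0.09 against SGI-110, 0.17 ± 0.09 against dasatinib).

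Muscle genes were among the largest falls. UNC45B, the chaperone that folds muscle myosin (chromosome 17, 35147817 to 35189345), stood at -3.53 ± 0.26 log2, and KCNT1, a sodium-activated potassium channel gene (chromosome 9, 135702185 to 135795508), fell by 3.49 ± 0.20 (the authors' deposited table, adjusted p = 2.7e-68). The delta-sarcoglycan gene SGCD fell by 3.02 ± 0.14, the syntrophin gene SNTB1 by 2.81 ± 0.08 and AKAP6, an anchoring protein of the muscle nuclear envelope, by 2.80 ± 0.12. TXLNB (-3.39 ± 0.26), the chloride channel gene BEST1 (-3.36 ± 0.22), the protease gene ADAMTS6 (-3.09 ± 0.10) and MEGF6 (-2.73 ± 0.13) made up the 10 largest falls with RP11-594N15.3 (-3.22), in the authors' deposited table. By statistic, the slow troponin I gene TNNI1 (-2.71 ± 0.09), the cardiac-type troponin T gene TNNT2 (-2.14 ± 0.07), the perlecan gene HSPG2 (-2.11 ± 0.08), the LIM protein gene PDLIM3 (-1.82 ± 0.06) and the adhesion gene L1CAM (-1.66 ± 0.06) led the falls.

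Germ cell genes rose almost throughout. Of 29 germline and meiosis genes found in the table, 27 rose and 1 fell with both drugs, against 29.8% and 17.6% of all genes, and the 15 members measured in both groups had a median of 5.54 log2. The other 14 had no measurable level in DMSO and could only be higher, so they add no support. Among genes of the piRNA pathway, which silences transposons in germ cells, TDRD1 rose by 3.50 ± 0.10 (11.3-fold) and PIWIL2 by 3.43 ± 0.13. Among meiosis genes, TEX11 rose by 7.38 ± 0.34 and the meiotic cohesin gene STAG3 by 7.88 ± 0.39, in the authors' deposited table. TEX19 was the member that fell (-0.89 ± 0.33, adjusted p = 0.0162 in the authors' deposited table).

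DAZL, which encodes an RNA-binding protein of germ cells (chromosome 3, 16586792 to 16670306), lacked a measurable level in DMSO and was called higher with both drugs (the authors' deposited table, adjusted p = 4.58e-28). Its RefSeq promoter is printed as an example from this group, with the CpG, the dinucleotide that DNA methyltransferases act on, marked. The window holds 250 bases before the start and 50 after it, is read on the minus strand from chr3:16605374-16605673 (GRCh38.p14), and has its 33 CpG in capitals.
DAZL: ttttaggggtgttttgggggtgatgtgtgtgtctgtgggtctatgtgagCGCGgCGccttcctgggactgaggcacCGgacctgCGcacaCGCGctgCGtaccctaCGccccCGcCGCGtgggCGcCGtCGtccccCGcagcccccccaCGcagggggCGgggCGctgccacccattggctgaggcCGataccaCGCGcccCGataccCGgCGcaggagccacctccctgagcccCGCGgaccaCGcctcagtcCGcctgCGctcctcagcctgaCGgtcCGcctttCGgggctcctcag
The 24 germline genes with a RefSeq promoter, of 29, had a median of 27.5 CpG in such a window, and the 24 matched cancer-testis genes, of 28, had 13. The median was 24, with quartiles of 12 and 33, over the promoters of the 14385 genes of the deposited table that have one, so the germline median lay near that of these genes. Over all 27194 RefSeq promoters, many of them of genes outside the table, it was 14 with quartiles of 3 and 28. Methylation itself is not measured by these data.

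Cancer-testis genes, antigens normally restricted to testis, had 26 of 28 members higher and 0 lower with both drugs. Since 27 of the 28 had no measurable level in DMSO, this count is a description and not support. SSX1 (adjusted p = 1.42e-26), TKTL1 (3.97e-25), MAGEC1 (1.68e-23) and MAGEC2 (1.16e-22) had the lowest adjusted p in the authors' deposited table. SSX and MAGE genes have close copies, and their values are uncertain for that reason. TEX13C (8.28e-27) and the paternally imprinted RNA H19 (6.01e-24) likewise had no measurable level in DMSO. Of 12 genes with retroviral or retrotransposon origin, 7 were called higher and 1 fell. As 7 of the 12 had no measurable level in DMSO, among them 4 of those called higher, this count too is mostly a description, and the 5 measured in both groups had a median of 0.83 log2. ERVW-1 is given above, PNMA5 (adjusted p = 3e-23) and ERVH48-1 (9.12e-11) had no measurable level in DMSO, PEG10 rose by 1.54 ± 0.05 and ERV3-1 fell by 0.34 ± 0.14, in the authors' deposited table.

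Against SGI-110 alone the germ cell genes were lower with both drugs or did not pass. The background here is the comparison of both drugs with SGI-110, in which 3237 of 22743 genes were higher (14.2%) and 3860 were lower (17%) in the authors' deposited table. None of the 29 germline genes was higher with both drugs than with SGI-110 (0) and 12 were lower, and the median was -0.38 log2. Of the cancer-testis genes 0 were higher and 8 lower, with TKTL1 at -0.95 ± 0.06 and SSX1 at -0.19 ± 0.08 (not past the threshold). H19 differed by -0.91 ± 0.07, DAZL by -0.44 ± 0.08 and PIWIL2 by -0.47 ± 0.08, while NNAT (-0.04 ± 0.07) did not pass and ERVW-1 was higher with both drugs by 0.52 ± 0.06, in the authors' deposited table. Against dasatinib alone, a comparison computed here from the deposited standard errors, 7895 of 29639 genes were higher with both drugs (26.6%) and 4904 were lower (16.5%). In it 27 of 29 germline genes were higher and 0 lower, and 13 of the 29 had no measurable level with dasatinib.

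Imprinted genes, which are expressed from the allele of 1 parent under the control of methylated regions, had 16 of 25 members higher and 4 lower with both drugs, and 5 of the 16 had no measurable level in DMSO. INPP5F rose by 1.63 ± 0.06 and CDKN1C, a cell cycle inhibitor of the maternal allele, was called without a measurable DMSO level (adjusted p = 2.24e-10), while BLCAP fell by 0.75 ± 0.05, in the authors' deposited table. Tumour suppressor genes often reported as silenced by methylation had 17 of 28 members higher and 6 lower, with a median of 0.60 over the 23 measured in both groups. Of the 17, 3 had no measurable level in DMSO. RASSF5 rose by 2.68, the angiogenesis inhibitor gene THBS1 by 2.84 ± 0.07 and the death-associated kinase gene DAPK1 by 0.97 ± 0.05, and the cadherin gene CDH13 fell by 1.28, in the authors' deposited table.

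The genes of the methylation machinery rose about as often as genes at such mean counts and fell less often. Of 17 members 6 rose (35.3%) and 2 fell (11.8%) with both drugs. Of all genes with mean counts of 100 to 1000, 34.4% rose and 31.5% fell, and above 1000 34.3% rose and 37.9% fell. The median of the members was 0.037 log2, the same as the 0.037 of all 21242 genes measured in both groups. DNMT1, the maintenance methyltransferase that decitabine traps, stood at 0.03 ± 0.05 (the authors' deposited table, adjusted p = 0.702) and did not pass. It was 0.35 log2 higher than with SGI-110 alone, where it fell by 0.32. The de novo methyltransferase gene DNMT3B rose by 1.04 ± 0.10 and DNMT3A by 0.31 ± 0.04, in the authors' deposited table. UHRF1, which brings DNMT1 to hemimethylated DNA, fell by 0.46 ± 0.06, and the methyl-CpG binding gene MBD1 rose by 0.46. Of 15 genes for decitabine uptake and nucleotide metabolism 4 rose and 3 fell. The nucleoside transporter genes moved apart, as SLC29A1 fell by 1.16 ± 0.06 and SLC29A2 rose by 1.72 ± 0.15, in the authors' deposited table. SAMHD1, which breaks down decitabine triphosphate, fell by 0.50, and the ribonucleotide reductase gene RRM2 rose by 0.35.

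Replication and linker histone genes rose in 17 of the 19 found, with 0 lower, and 3 of the 17 had no measurable level in DMSO. The median was 3.50 log2 over the 15 measured in both groups. HIST1H2BK rose by 4.58 ± 0.13 (adjusted p = 6.23e-290), HIST1H2AC by 3.50 ± 0.16 and HIST1H2BD by 3.49 ± 0.16, in the authors' deposited table. With both drugs 12 of the 19 were lower than with SGI-110 alone and 0 were higher, and HIST1H1C differed by -1.13 ± 0.07. The libraries were poly(A)-selected and most replication histone transcripts end without a poly(A) tail, so these values concern the polyadenylated fraction, and near-identical copies make single members uncertain.

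Interferon-stimulated genes rose with both drugs, but by less than with SGI-110 alone. Of 41 members 28 rose and 6 fell against DMSO, and the median was 0.45 log2 over the 36 measured in both groups. Among the 28, 4 had no measurable level in DMSO. With SGI-110 alone 32 rose and 4 fell, with a median of 1.47 over the same 36 (30.4% and 17.1% over all genes), and with dasatinib alone 4 rose and 12 fell (17.8% and 13.2% over all genes). In the direct comparison of both drugs with SGI-110, 23 of the 41 were lower and 1 was higher, with a median of -0.55, against 17% lower and 14.2% higher over all genes. IFITM1, a membrane barrier to viral entry, rose by 3.41 ± 0.37, IFI6 by 1.35 ± 0.14 and the ADP-ribosyltransferase gene PARP14 by 0.76 ± 0.08 with both drugs, in the authors' deposited table. USP18, the brake on the interferon receptor (chromosome 22, 18149899 to 18177397), fell by 1.86 ± 0.15 with both drugs (adjusted p = 1.3e-33), against falls of 0.66 with SGI-110 and 0.47 with dasatinib, in the authors' deposited table. It was 1.19 log2 lower than with SGI-110 and 1.39 log2 lower than with dasatinib.

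Some members that rose with SGI-110 did not pass against DMSO with both drugs, or fell. The following were chosen after their values were seen. The RNA-binding effector IFIT1 stood at -0.13 ± 0.20 with both drugs and at 1.87 ± 0.17 with SGI-110, a difference of -2.00 ± 0.17, and OASL stood at 0.20 ± 0.32 with both drugs and at 2.81 ± 0.27 with SGI-110, a difference of -2.61 ± 0.25, in the authors' deposited table. The antiviral gene RSAD2 (-1.09 ± 0.62, adjusted p = 0.139) did not pass against DMSO and was 3.30 ± 0.53 log2 lower than with SGI-110. BST2, which tethers budding virus, fell by 0.98 ± 0.17 with both drugs and rose by 0.82 ± 0.14 with SGI-110, in the authors' deposited table. ISG15, whose product is conjugated to proteins like ubiquitin, rose by 0.67 ± 0.10 with both drugs and by 2.27 ± 0.10 with SGI-110.

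The promoters of PARP14 and IFI6 are printed because these members carry the core of the interferon-stimulated response element, searched as GAAANNGAA on both strands. It is present in 23 of the 33 interferon-stimulated genes with a RefSeq promoter (69.7%), in 967 of the 14385 promoters of genes in the deposited table (6.72%), and in 2257 of all 27194 promoters (8.30%). Each window is in the gene's own direction (GRCh38.p14), PARP14 from chr3:122680589-122680888 on the plus strand and IFI6 from chr1:27672143-27672442 on the minus strand, with each match in capitals.
PARP14: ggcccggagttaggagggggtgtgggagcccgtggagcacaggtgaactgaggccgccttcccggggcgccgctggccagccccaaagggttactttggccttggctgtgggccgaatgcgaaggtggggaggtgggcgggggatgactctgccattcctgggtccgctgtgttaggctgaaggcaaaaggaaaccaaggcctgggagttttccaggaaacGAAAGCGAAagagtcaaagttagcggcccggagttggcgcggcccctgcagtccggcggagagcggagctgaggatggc
IFI6: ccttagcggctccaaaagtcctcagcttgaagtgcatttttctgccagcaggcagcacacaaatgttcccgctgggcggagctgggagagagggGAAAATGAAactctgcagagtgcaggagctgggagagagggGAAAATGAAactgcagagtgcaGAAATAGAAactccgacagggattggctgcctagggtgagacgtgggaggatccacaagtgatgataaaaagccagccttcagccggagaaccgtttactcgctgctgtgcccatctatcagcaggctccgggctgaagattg
PARP14 has 1 match, which begins at position -29 relative to the annotated start, and IFI6 has 3, the first of them at position -156. A match is a description of the letters only.

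Genes upstream of the interferon response moved in both directions. Of 20 interferon signalling genes 5 rose and 2 fell with both drugs, below the background for both directions, with IRF7 at 1.07, the receptor gene IFNAR2 at 0.79, IRF3 at 0.41 and the kinase gene JAK2 at -0.73, all past the threshold. Of 16 nucleic acid sensing genes 11 rose and 2 fell. The DNA sensor gene IFI16 rose by 0.93 and ADAR, which edits double-stranded RNA, by 0.60, each higher with both drugs than with SGI-110 (by 0.37 and 0.43 log2), in the authors' deposited table. TBK1 rose by 0.37 and MAVS fell by 0.29. Of 22 antigen presentation genes 6 were higher (27.3%) and 9 lower (40.9%) with both drugs. Of all genes with mean counts of 100 to 1000, 34.4% were higher and 31.5% lower, so these shares lay not far from the background. With SGI-110 11 were higher and 5 lower (30.4% and 17.1% over all genes). In the direct comparison 10 were lower with both drugs than with SGI-110 and 3 higher, against 17% and 14.2% over all genes. The proteasome activator gene PSME1 fell by 0.99, the peptide transporter gene TAP2 by 0.66 and CALR by 0.44, in the authors' deposited table. Of 28 inflammatory genes of the NF-kB pathway 16 rose, 3 of them without a measurable level in DMSO, and 1 fell. TNFAIP3, an inhibitor of NF-kB, and the cytokine gene IL11 each rose by 1.06 and NFKB1 by 0.80, and the cytokine gene IL32 fell by 1.46 ± 0.08, in the authors' deposited table.

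**Figure D2:**
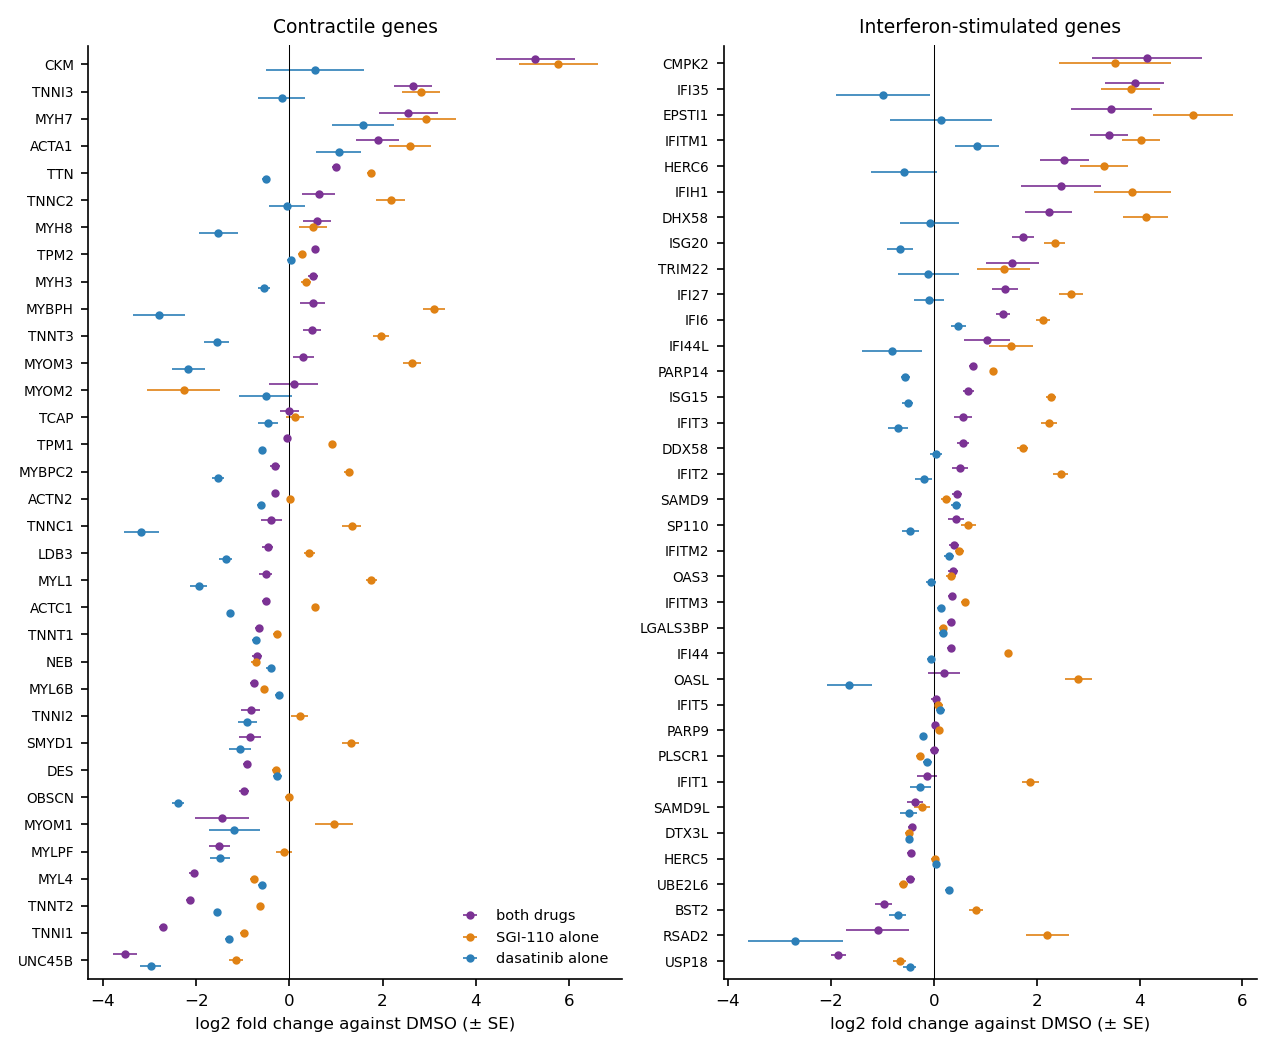
Change against DMSO (log2, horizontal axis, with standard error bars) of each contractile gene and each interferon-stimulated gene measured in the groups, with both drugs, with SGI-110 alone and with dasatinib alone. The point for both drugs lies between those of the single drugs for many genes, such as TTN, ACTC1 and ISG15, while TNNI1, TNNT2, MYL4 and USP18 lie below both. No dasatinib point is drawn where that group had no measurable level.

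More contractile genes fell than rose with both drugs, whereas more rose than fell with SGI-110 alone. Of 40 genes of the sarcomere 12 rose (30.0%) and 18 fell (45.0%) with both drugs, and the median was -0.35 log2 over the 34 measured in both groups. Of all genes with mean counts of 100 to 1000, 34.4% rose and 31.5% fell. Among the 12 that rose, 4 had no measurable level in DMSO. The same genes rose in 23 and fell in 9 with SGI-110 alone, against 30.4% and 17.1% of all genes, with a median of 0.47. They rose in 0 and fell in 25 with dasatinib alone, against 17.8% and 13.2% of all genes, with a median of -0.81. With both drugs 27 of the 40 were lower than with SGI-110 and 2 higher, with a median of -0.97, and against dasatinib 20 were higher and 6 lower. TNNI1 (chromosome 1, 201403768 to 201429866) stood at -2.71 ± 0.09 with both drugs (adjusted p = 5.81e-203), at -0.98 with SGI-110 and at -1.30 with dasatinib, in the authors' deposited table. TNNT2 (chromosome 1, 201359008 to 201377762) stood at -2.14 ± 0.07 with both drugs, -0.62 with SGI-110 and -1.55 with dasatinib. The embryonic myosin light chain gene MYL4 fell by 2.05 ± 0.10, and TTN, the giant spring protein of the sarcomere, rose by 1.00 ± 0.08, in the authors' deposited table. ACTC1, the cardiac alpha-actin gene of developing muscle, fell by 0.51 ± 0.08 with both drugs, rose by 0.55 with SGI-110 and fell by 1.27 with dasatinib.

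Genes of the muscle membrane and of excitation fell in 16 of the 32 and rose in 11. The dystroglycan gene DAG1 fell by 1.07, SGCD and SNTB1 are given above, and CHRNE, the adult subunit of the acetylcholine receptor, rose by 5.63 ± 0.36, in the authors' deposited table. DES, the muscle intermediate filament gene, fell by 0.90 ± 0.09 and the acetylcholine receptor gene CHRNA1 rose by 0.35. Myogenic regulators had 13 of 23 members higher and 7 lower. MYOG, which drives terminal differentiation, fell by 0.39 ± 0.07 with both drugs and rose by 0.46 with SGI-110, a difference of -0.84, while MYOD1 rose by 0.30 ± 0.12 (the authors' deposited table, adjusted p = 0.0302); both were chosen after their values were seen. The inhibitors of the myogenic factors, ID1 (1.66), ID2 (1.39) and ID3 (2.17 ± 0.10), rose, and ID3 was 1.16 log2 higher than with SGI-110 and 1.36 log2 higher than with dasatinib. PAX3, the paired-box factor of muscle progenitors (chromosome 2, 222199888 to 222298996), rose by 1.30 ± 0.08, against 0.76 with SGI-110 and 0.88 with dasatinib, in the authors' deposited table.

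Genes reported as targets of PAX3-FOXO1 were split, with 12 of 24 higher and 11 lower with both drugs. FGFR4, a growth factor receptor gene (chromosome 5, 177086886 to 177098144), fell by 1.47 ± 0.07 and RASSF4 by 1.36, and ASS1, the arginine synthesis enzyme, rose by 1.17 ± 0.07, in the authors' deposited table. With both drugs 13 of the 24 were higher than with SGI-110 and 3 lower. The tables do not tell whether the unnamed line carries the fusion.

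The kinases that dasatinib binds showed mostly small changes of RNA. Of 12 SRC family and ABL genes 6 rose and 2 fell with both drugs. SRC rose by 0.59 ± 0.08, YES1 by 0.33 and FYN by 0.18 ± 0.08 (adjusted p = 0.0373), LYN fell by 0.45 ± 0.12 and ABL2 by 0.20 ± 0.06, and ABL1 did not pass (-0.03 ± 0.06, adjusted p = 0.707), in the authors' deposited table. CSK, which phosphorylates the inhibitory tail of SRC kinases, rose by 0.38, and LCK was called without a measurable DMSO level (adjusted p = 7.18e-05). ABL2 was 0.80 log2 lower than with SGI-110. Of 28 other kinase genes that dasatinib can bind 14 rose, 3 of them without a measurable level in DMSO, and 2 fell. The ephrin receptor genes EPHA2 (2.08 ± 0.10) and EPHA5 (2.69) and the collagen receptor gene DDR1 (0.70) rose, and the related DDR2 fell by 1.18 ± 0.07, in the authors' deposited table. Genes of SRC substrates and adhesion rose in 19 of the 28 and fell in 4, with SHC1, the caveolin gene CAV1 (1.28), VASP (1.18) and HCLS1 (6.05) among the rises.

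Feedback and target genes of MAPK signalling rose in 19 of the 23 and fell in 2, and the median was 0.83 log2. With SGI-110 alone 16 rose and 2 fell (30.4% and 17.1% over all genes), and with dasatinib alone 13 rose and 4 fell (17.8% and 13.2% over all genes). CCND1, the cyclin of G1, rose by 1.66 ± 0.05 with both drugs, against a rise of 2.12 with SGI-110 and a fall of 0.38 with dasatinib, in the authors' deposited table. The transcription factor gene ETV4 rose by 2.40 ± 0.10, higher than with SGI-110 (by 0.56 log2) and with dasatinib (by 1.03 log2). The feedback inhibitor gene IL17RD rose by 1.19 and SPRY2 fell by 1.10 ± 0.05. Immediate early genes rose in 14 of the 22 and fell in 5, with the nuclear receptor gene NR4A3 at 3.92 ± 0.17, MAFF at 2.36, IER3 at 1.52 and EGR1 at 1.39 ± 0.11, in the authors' deposited table. Of these 22 genes 12 were lower and 3 higher with both drugs than with SGI-110.

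Of 39 genes of collagens and matrix proteins 26 rose and 8 fell, and the median was 0.68 log2 over the 35 measured in both groups. Among the 26, 3 had no measurable level in DMSO. COL1A1, the main chain gene of type I collagen (chromosome 17, 50183289 to 50201632), rose by 2.50 ± 0.07 with both drugs (5.64-fold, adjusted p = 1.38e-281), against a rise of 4.50 ± 0.07 with SGI-110 and a fall of 0.29 ± 0.08 with dasatinib, in the authors' deposited table. It was 2.00 ± 0.06 log2 lower with both drugs than with SGI-110. COL1A2, whose protein pairs with it, differed from SGI-110 by -0.40 ± 0.06. The type III collagen gene COL3A1 ran the other way: it rose by 1.35 ± 0.07 with both drugs, 0.71 log2 above SGI-110 and 0.86 log2 above dasatinib. COL5A1 fell by 1.58 ± 0.05. Of the 39 genes 22 were lower and 6 higher with both drugs than with SGI-110.

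Target genes of YAP and TAZ, coactivators that respond to cell tension, rose in 15 of the 30 and fell in 3 with both drugs, and the median was 0.34 log2 over the 28 measured in both groups. With SGI-110 alone 26 rose and 2 fell, against 30.4% and 17.1% of all genes, with a median of 1.15 over the same members. Against SGI-110 18 were lower and 0 higher, with a median of -0.52. CTGF rose by 3.95 ± 0.21, AMOTL2 by 1.76 and AJUBA by 1.03, and each was lower than with SGI-110, by 0.82, 0.61 and 0.38 log2 in that order, in the authors' deposited table. Targets of SRF and cytoskeleton genes had 15 of 30 members higher and 5 lower: FHL2 (1.25) and FLNA (0.55) rose, and the muscle-enriched filamin gene FLNC (-0.91) and the vinculin gene VCL (-0.85) fell. TGF-beta pathway genes had 13 of 26 higher and 6 lower, with LTBP2 at 3.26 and the inhibitory SMAD6 at 1.97. Integrin and laminin genes were split, with 12 of 28 higher and 10 lower, and the share lower, 35.7%, was near that of all genes at such counts. The basement membrane genes NID1 (7.38) and NID2 (3.63) rose, while the laminin gene LAMA5 (-1.16 ± 0.09) and the integrin gene ITGA4 (-0.95) fell and lay 0.94 and 1.17 log2 below SGI-110, in the authors' deposited table. Metalloproteases and their inhibitors rose in 14 of the 26, of which 4 had no measurable level in DMSO, and fell in 6. ADAM12 stood at 2.25, MMP2 at 1.43, TIMP1 at 1.44 and ADAMTS1 at -0.48, all past the threshold.

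**Figure D3:**
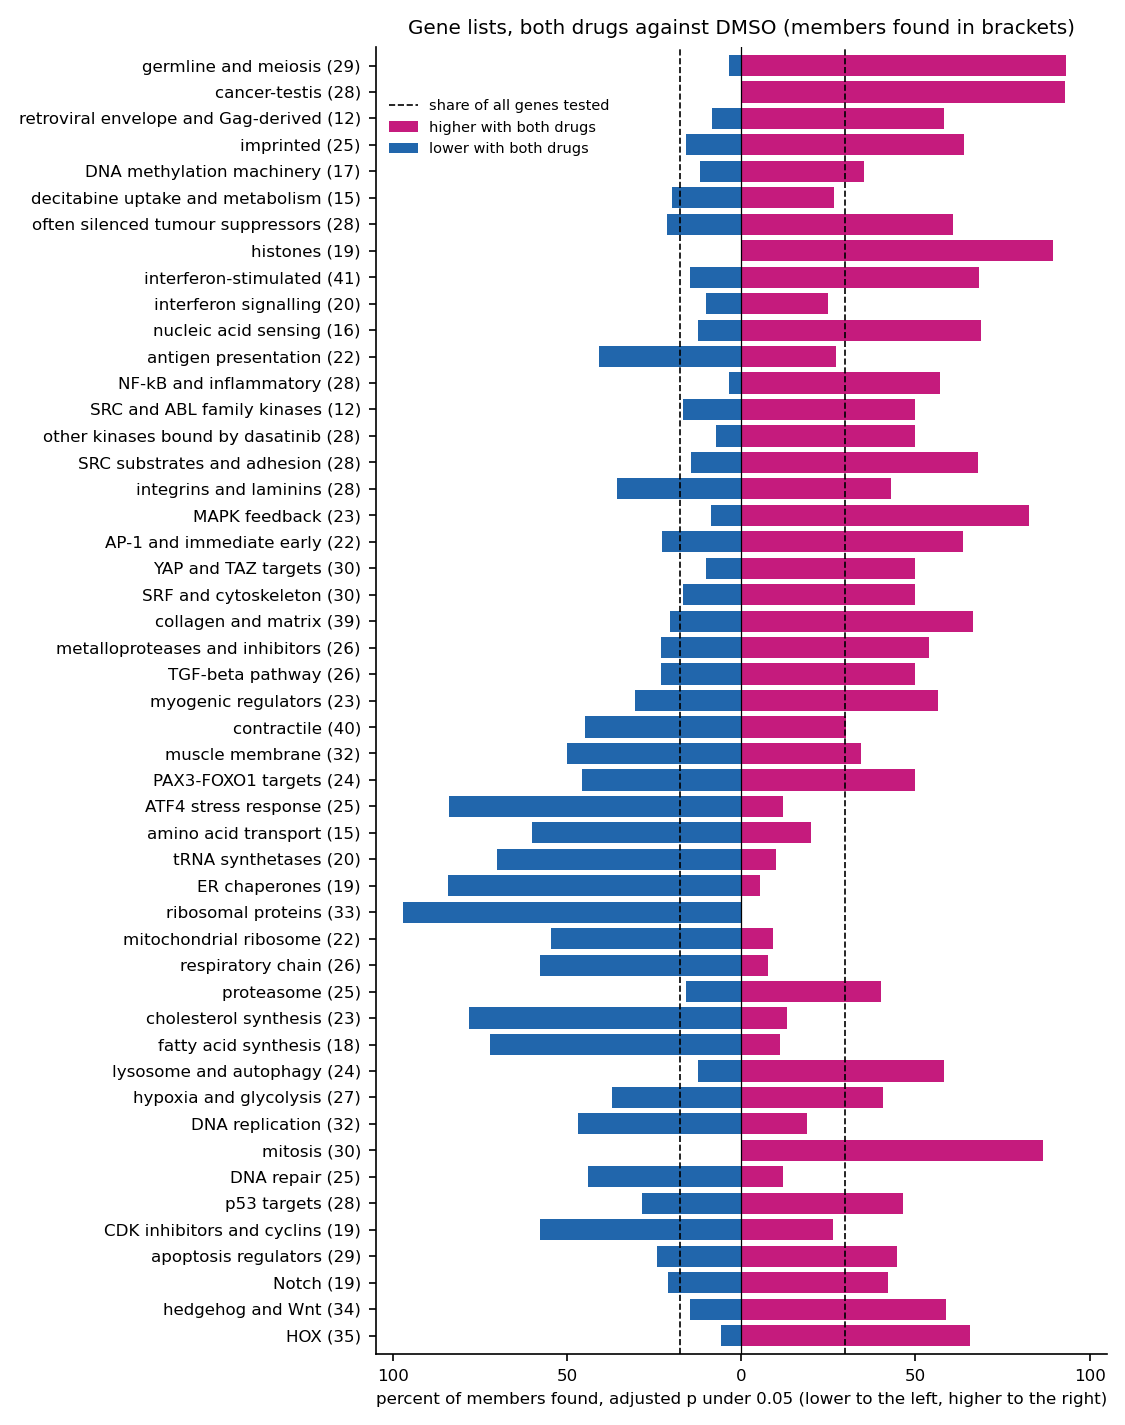
Percent of the members of each gene group that were higher or lower with both drugs than in DMSO at an adjusted p under 0.05. Dashed lines mark the shares of all genes tested (29.8% higher, 17.6% lower). No line is drawn for genes with mean counts above 1000, of which 37.9% were lower. Germline, cancer-testis, histone and mitosis genes lie at the high end for rises and ribosomal protein, endoplasmic reticulum chaperone and ATF4 genes at the high end for falls.

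Genes of protein synthesis and of the amino acid response were mostly lower. Of 25 genes of the ATF4 stress response 21 fell and 3 rose with both drugs, and the median was -1.11 log2 over the 24 measured in both groups. ATF4, the transcription factor itself (chromosome 22, 39519695 to 39522685), fell by 1.30 ± 0.07 (adjusted p = 4.01e-70), against a fall of 1.48 with SGI-110 and a value of 0.02 with dasatinib, in the authors' deposited table. DDIT3, which encodes CHOP (chromosome 12, 57516588 to 57521737), fell by 1.76 ± 0.07, the mTOR inhibitor gene DDIT4 by 1.54 ± 0.08 and CEBPG, a partner of ATF4, by 1.46. Of 20 cytoplasmic tRNA synthetase genes 14 fell and 2 rose, with a median of -0.76, and 17 were lower than with dasatinib alone. YARS fell by 1.69 ± 0.08, MARS by 1.52 ± 0.06 (adjusted p = 4.46e-121), CARS by 1.46 ± 0.08 and IARS by 1.28 ± 0.08, in the authors' deposited table. Amino acid transporter genes fell in 9 of the 15 and rose in 3: SLC1A4 (-1.60), SLC7A5 (-0.89) and its partner SLC3A2 (-0.66) fell, and SLC38A1 rose by 1.49.

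The promoters of 3 synthetase genes are printed because they carry TTGCATCA, a sequence of the kind that ATF4 binds with C/EBP partners, next to the start of transcription. It was searched on both strands, and its reverse complement overlaps the related motif TGATGNAAT in part. It is present in 6 of the 16 synthetase genes with a RefSeq promoter (37.5%), of 20 listed, in 82 of the 14385 promoters of genes in the deposited table (0.570%), and in 250 of all 27194 promoters (0.919%). The 6 genes are MARS, CARS, IARS, AARS, NARS and TARS, and each of them fell. The windows are MARS from chr12:57487818-57488117 on the plus strand, CARS from chr11:3057374-3057673 on the minus strand and IARS from chr9:92293648-92293947 on the minus strand (GRCh38.p14), each in the gene's direction with the match in capitals.
MARS: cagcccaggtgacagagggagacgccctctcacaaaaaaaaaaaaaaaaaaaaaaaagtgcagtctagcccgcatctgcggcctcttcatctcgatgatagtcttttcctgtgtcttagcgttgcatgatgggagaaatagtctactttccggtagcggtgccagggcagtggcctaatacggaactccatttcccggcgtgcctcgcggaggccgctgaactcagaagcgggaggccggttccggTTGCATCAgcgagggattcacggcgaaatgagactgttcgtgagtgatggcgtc
CARS: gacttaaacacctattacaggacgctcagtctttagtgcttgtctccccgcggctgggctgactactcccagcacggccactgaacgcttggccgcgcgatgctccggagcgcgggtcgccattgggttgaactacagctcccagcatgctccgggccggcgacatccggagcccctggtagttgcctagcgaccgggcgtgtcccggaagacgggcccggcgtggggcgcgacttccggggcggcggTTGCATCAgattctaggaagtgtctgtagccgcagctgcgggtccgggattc
IARS: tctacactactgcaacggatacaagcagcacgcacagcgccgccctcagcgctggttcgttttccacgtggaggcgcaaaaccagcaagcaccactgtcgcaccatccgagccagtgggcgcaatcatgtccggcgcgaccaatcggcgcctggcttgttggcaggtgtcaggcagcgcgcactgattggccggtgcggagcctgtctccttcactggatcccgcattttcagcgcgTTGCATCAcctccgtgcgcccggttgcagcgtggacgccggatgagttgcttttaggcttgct
The match begins at position -4 relative to the annotated start in MARS, -2 in CARS and -13 in IARS. In the 20 matched genes of the ATF4 list, of 25, the same letters were present in 2. The match is a description of the letters, and binding was not measured.

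Ribosome and chaperone genes were lower as well. Of 33 ribosomal protein genes 32 fell and 0 rose, and the median was -0.44 log2, and RPL22 (-1.09), RPL11 (-0.87) and RPL4 (-0.82) led. With both drugs 12 of the 33 were higher than with SGI-110 and 0 lower. Endoplasmic reticulum chaperone genes fell in 16 of the 19 and rose in 1, with a median of -0.44. All 19 also fell with dasatinib alone and 18 with SGI-110 alone, against 13.2% of all genes with dasatinib and 17.1% with SGI-110. HSPA5, the main chaperone of this compartment, fell by 1.17 ± 0.05 with both drugs, by 1.25 with SGI-110 and by 1.34 with dasatinib, in the authors' deposited table. HERPUD1 fell by 1.43, HYOU1 by 1.00 and PDIA6 by 0.82, and CRELD2 was the member that rose (0.52 ± 0.07). Mitochondrial ribosomal protein genes fell in 12 of 22 members, with MRPS27 at -0.82 and MRPS35 at -0.74, and respiratory chain genes fell in 15 of 26, with NDUFA9 at -1.17; each group had 2 members higher. Proteasome genes rose in 10 of the 25 and fell in 4, and 19 were higher than with SGI-110 and 0 lower. PSMD12, a subunit of the regulatory particle, rose by 0.74.

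Sterol and fatty acid synthesis genes were lower with both drugs than with either drug alone. Of 23 cholesterol synthesis genes 18 fell and 3 rose against DMSO, and the median was -0.79 log2 over the 22 measured in both groups, against 16 that fell with SGI-110 (median -0.35) and 2 that fell with dasatinib. Over all genes 17.1% fell with SGI-110 and 13.2% with dasatinib. In the direct comparisons 18 were lower than with SGI-110 and 1 higher, and 18 were lower than with dasatinib and 3 higher. MSMO1, a sterol demethylating enzyme (chromosome 4, 165327623 to 165343160), fell by 1.84 ± 0.10 with both drugs, by 0.39 with SGI-110 and by 0.26 with dasatinib, in the authors' deposited table. SREBF2, the transcription factor of the pathway, fell by 1.13 ± 0.07, DHCR7, the last reductase of the pathway, by 1.45 ± 0.09 and HMGCS1, which acts just before the rate-limiting step, by 1.03. Fatty acid genes fell in 13 of the 18 and rose in 2, with 11 lower and 1 higher than with SGI-110. The stearoyl-CoA desaturase gene SCD (chromosome 10, 100347124 to 100364834) fell by 1.54 ± 0.06 (adjusted p = 5.58e-154), ACSL3 by 1.13, FADS1 by 0.66 and ACACA by 0.63, in the authors' deposited table.

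**Figure D4:**
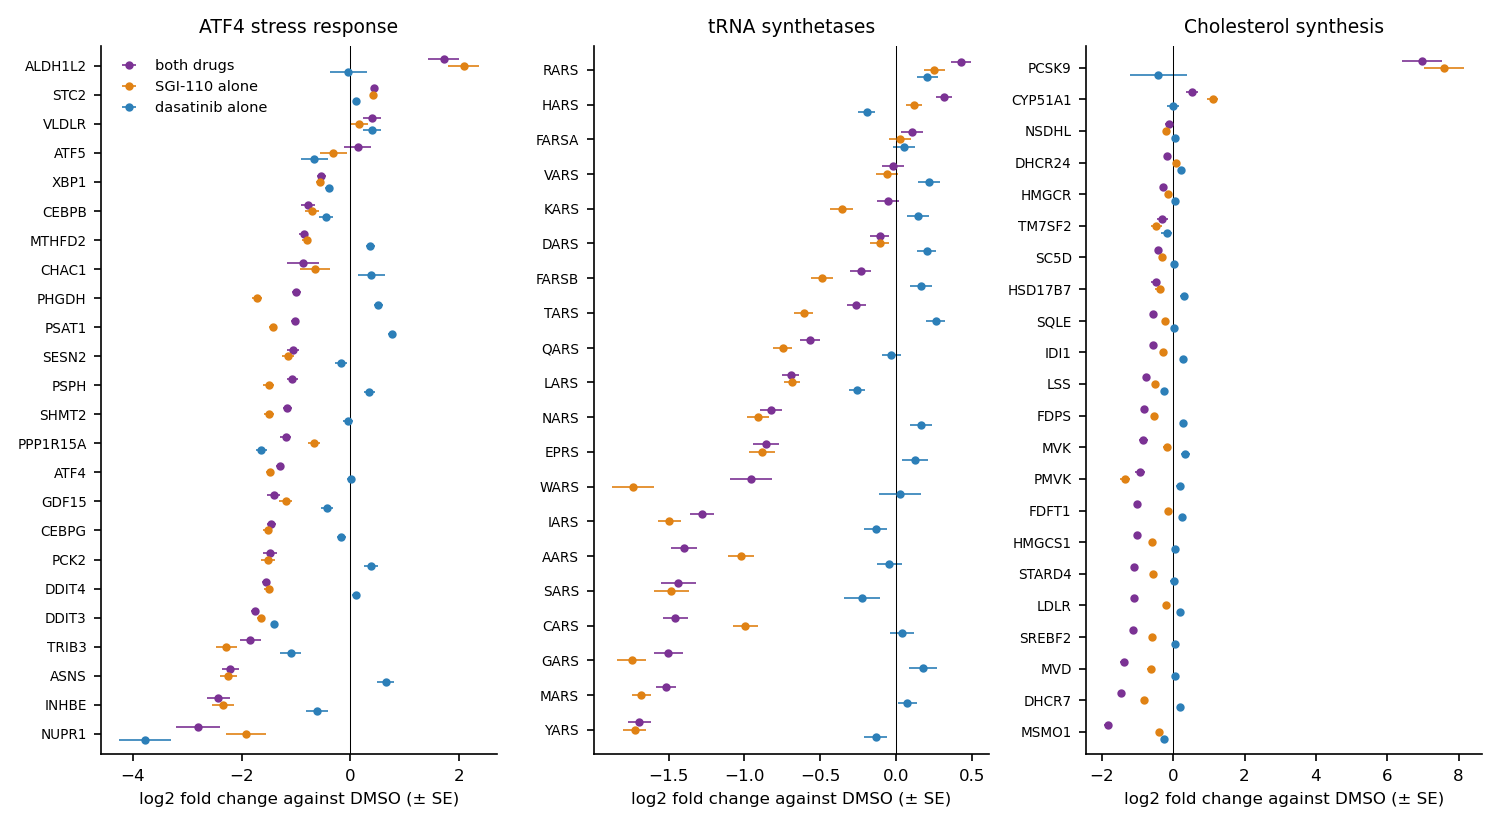
Change against DMSO (log2, horizontal axis, with standard error bars) of genes of the ATF4 response, tRNA synthetases and cholesterol synthesis, with both drugs, with SGI-110 alone and with dasatinib alone. In the ATF4 and synthetase panels the points for both drugs lie near those for SGI-110, and in the cholesterol panel MSMO1, DHCR7, SREBF2 and HMGCS1 lie below both single drugs.

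Lysosome genes rose in 14 of the 24 and fell in 3, with CTSA at 0.84, SQSTM1 at 0.49 and GRN at 0.47. Genes of hypoxia and glycolysis were split, with 11 of 27 higher (40.7%) and 10 lower (37.0%). These shares were near those of all genes with mean counts above 1000, of which 34.3% were higher and 37.9% lower. NDRG1 rose by 2.97 and LDHA by 1.41, and HK2, the first enzyme of glycolysis, fell by 1.26, all past the threshold in the authors' deposited table.

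Cell cycle genes divided by phase. Mitosis genes rose in 26 of the 30 and fell in 0 with both drugs, and the median was 0.51 log2. They also rose in 21 with SGI-110 and in 29 with dasatinib, against 30.4% and 17.8% of all genes. With dasatinib alone the median was 0.70. In the direct comparisons 14 were lower with both drugs than with dasatinib and 7 higher, with a median of -0.13. Against SGI-110 1 was lower and 17 were higher. The proliferation marker gene MKI67 rose by 1.10 ± 0.05, the mitotic kinesin gene KIF20A by 1.16, the kinase gene PLK1 by 1.11 and HMMR by 1.40, in the authors' deposited table. Genes of DNA replication fell in 15 of the 32 (46.9%) and rose in 6, with a median of -0.13, against 37.9% lower among all genes with mean counts above 1000. The same genes fell in 25 and rose in 4 with SGI-110, with a median of -0.37, against 17.1% lower and 30.4% higher over all genes. They fell in 0 and rose in 23 with dasatinib, with a median of 0.21, against 13.2% lower and 17.8% higher over all genes. The single-drug shares are not matched for mean count, so they are not on the same footing as the 37.9%. In the direct comparison 25 of the 32 were higher with both drugs than with SGI-110 and 0 were lower. MCM4, of the replicative helicase, rose by 0.61 ± 0.04 with both drugs and by 0.11 with SGI-110, and the polymerase gene POLA1 fell by 0.59 with both drugs and by 0.94 with SGI-110, in the authors' deposited table. ORC1 rose by 0.63 and CDC6 by 0.56. DNA repair genes fell in 11 of the 25 (44.0%, against 31.5% at mean counts of 100 to 1000 and 37.9% above) and rose in 3, with FANCA at -0.74, FANCD2 at -0.73, BRCA1 at -0.57 and EXO1 at 0.51. Whether more cells were in mitosis or each held more of these transcripts cannot be told apart in bulk RNA, and the same holds for the other groups.

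Cyclins, their kinases and inhibitors fell in 11 of the 19 and rose in 5. RB1, the brake on entry into S phase, fell by 0.97 and CCND3 by 0.55, and CCND1 and CDKN1C are given above. Targets of p53 rose in 13 of the 28 and fell in 8: DDB2 rose by 1.27, TP53INP1 by 1.19 and TIGAR by 0.93, and the stress cytokine gene GDF15 fell by 1.41, all past the threshold in the authors' deposited table. Apoptosis regulators rose in 13 of the 29 and fell in 7. BCL2L1, which encodes the survival protein BCL-XL (chromosome 20, 31664452 to 31723989), fell by 1.30 ± 0.07 with both drugs (adjusted p = 7.8e-70), by 0.33 with SGI-110 and by 0.57 with dasatinib, in the authors' deposited table. It lay 0.97 log2 below SGI-110 and 0.73 log2 below dasatinib. CFLAR, an inhibitor of caspase-8 activation, rose by 1.40, APAF1, of the apoptosome, by 0.91, and the death receptor gene TNFRSF10B fell by 0.66.

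Among developmental pathways, Hedgehog and Wnt genes (58.8%) and HOX genes (65.7%) were higher more often than all genes (29.8%). Notch genes lay nearer the background, with 42.1% higher and 21.1% lower. At mean counts of 100 to 1000 the shares of all genes were 34.4% and 31.5%. Hedgehog and Wnt genes were higher in 20 of 34 members and lower in 5, with the receptor gene PTCH1 at 1.03, AXIN2 at 1.68, WNT11 at 5.35 and the coreceptor gene LRP5 at -0.93. Notch genes were higher in 8 of 19 and lower in 4, with HES1 at 1.56, MFNG at 1.76, HEYL at 1.05 and NOTCH2 at 0.57, and 11 were lower with both drugs than with SGI-110. HOX genes were higher in 23 of 35, of which 3 had no measurable level in DMSO, and lower in 2. HOXA9 stood at 4.27, HOXD13 at 3.57, HOXB13 at 2.42 and HOXB3 at 1.11, all past the threshold in the authors' deposited table.

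The 6 genes with the largest statistics against SGI-110 among those higher with both drugs than in DMSO and than with each drug alone follow first. COX10, a haem A synthesis enzyme of mitochondria (chromosome 17, 14069496 to 14208677), stood at 1.91 ± 0.07 with both drugs (adjusted p = 2.71e-162), at -0.09 ± 0.08 with SGI-110 and at -0.06 ± 0.08 with dasatinib, in the authors' deposited table. Neither single drug moved it past the threshold, and the drug pair was higher by 2.00 ± 0.07 than SGI-110 and by 1.97 ± 0.07 than dasatinib. DIO2, which activates thyroid hormone (chromosome 14, 80197527 to 80387757), rose by 5.31 ± 0.18, against 2.85 with SGI-110 and 1.18 with dasatinib, in the authors' deposited table. The mesenchymal homeobox gene PRRX1 was called without a measurable DMSO level (adjusted p = 8.22e-16) and was 3.54 ± 0.17 log2 higher than with SGI-110. PITPNM3 (1.66 ± 0.08), LA16c-312E8.4 (5.09 ± 0.22) and DAPK1 (0.97 ± 0.05 with both drugs, against 0.12 with SGI-110 and 0.22 with dasatinib) were the other 3.

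In the other direction the 6 genes were TNNI1 and TNNT2, given above, and 4 more. XIRP1, an actin-binding protein of muscle attachment sites (chromosome 3, 39183210 to 39192596), stood at -2.00 ± 0.16 with both drugs, 1.03 with SGI-110 and -0.84 with dasatinib, and was 3.02 log2 lower than with SGI-110, in the authors' deposited table. SYNPO2L, of the sarcomeric Z-disc, stood at -1.94 ± 0.11 with both drugs and was 2.16 log2 lower than with SGI-110. ASB5, a muscle-enriched ubiquitin ligase adaptor (-1.30 ± 0.09), and the matrix gene OLFML2A (-1.85 ± 0.07) were 1.61 and 1.53 log2 lower than with SGI-110. Since these genes were picked for their difference from the single drugs, the differences are descriptions.

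**Figure D5:**
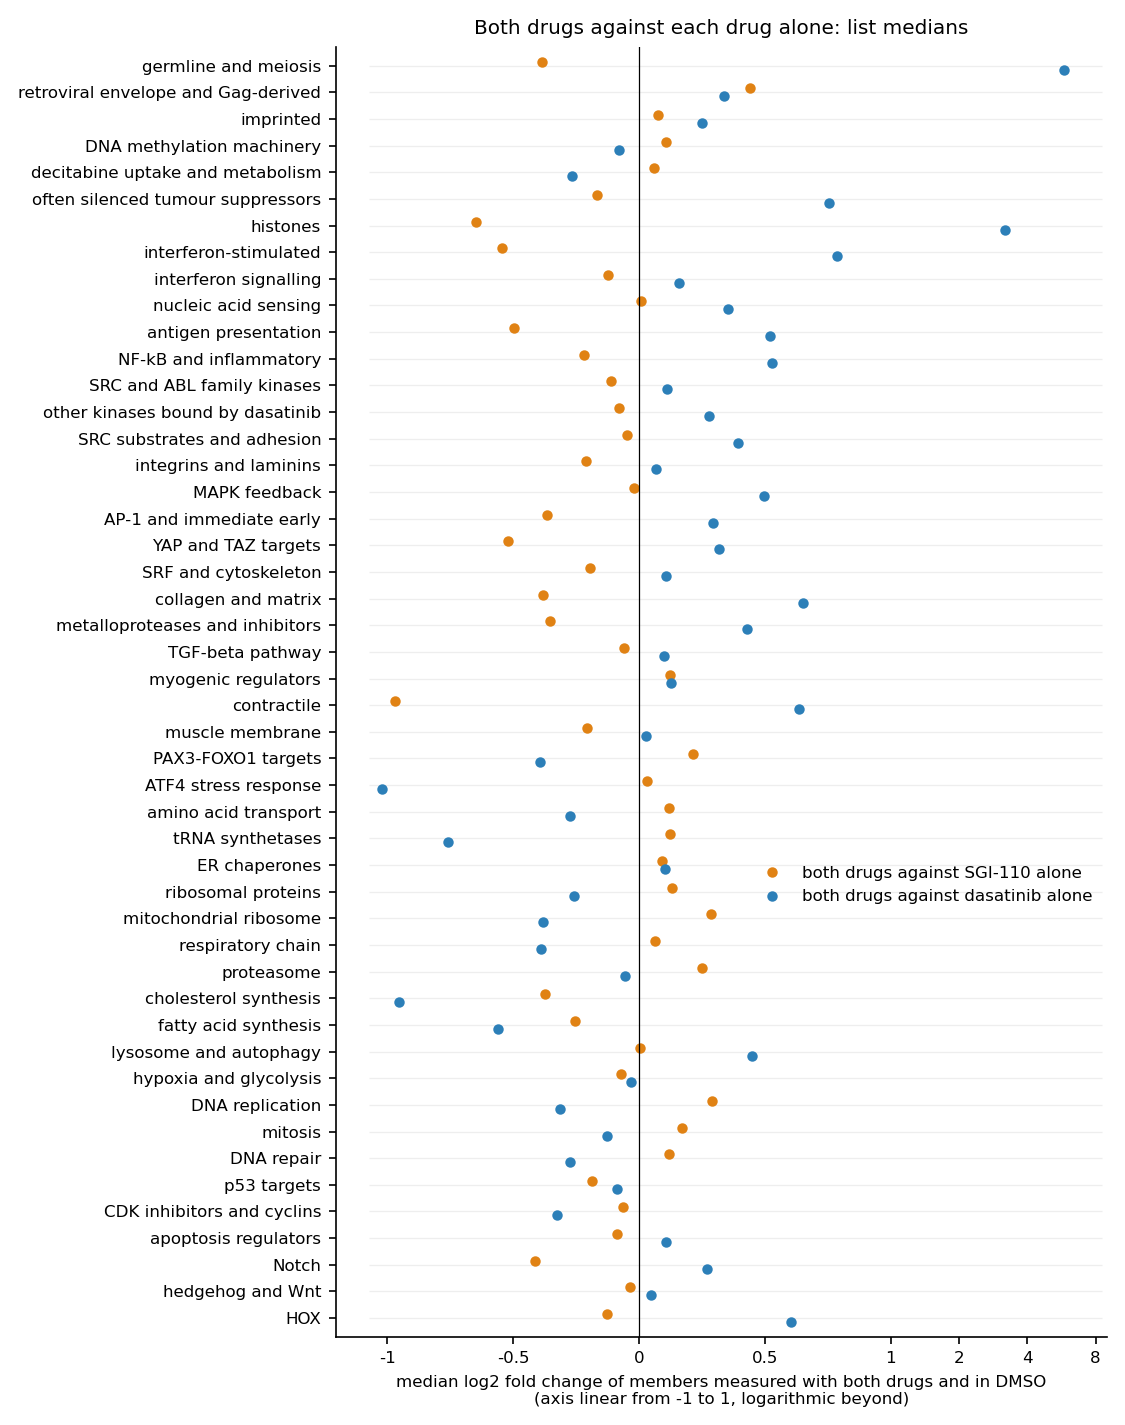
Median change of each gene group with both drugs against SGI-110 alone and against dasatinib alone (log2, on a symmetric log axis), over members measured with both drugs and in DMSO. The medians against dasatinib include some members with no measurable level in that group. Contractile genes have a median of -0.97 against SGI-110 and 0.64 against dasatinib, and cholesterol synthesis genes lie below 0 on both (-0.37 and -0.95).

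Defining markers of skeletal muscle were all measurable: none of the 10 lacked a level in DMSO or in the combination, and their mean counts ran from 87.7 to 11865. With both drugs 5 of them rose and 4 fell. Many markers of other cell types had no measurable level in DMSO and could only be higher, so their counts are descriptions. Fibroblast markers were higher in 10 of the 13, of which 5 had no measurable level in DMSO, and fell in 2, with COL3A1 and THY1 (0.95) among those measured in DMSO. Epithelial markers were higher in 9 of 14, of which 7 had no measurable level in DMSO: EPCAM, CDH1, KRT8, KRT18, CLDN3, CLDN7 and GRHL2. KRT7 (0.72 ± 0.31) and ELF3 (2.53 ± 0.61) rose with a measurable DMSO level, in the authors' deposited table. Endothelial markers were higher in 8 of 11, of which 3 had no measurable level in DMSO, and fell in 1, with PECAM1 at 1.27 ± 0.08, ESAM at 2.93 ± 0.42 and TIE1 at -1.11, in the authors' deposited table. Neural markers were higher in 10 of 15, of which 6 had no measurable level in DMSO, and fell in 1, with DCX at 4.21 ± 0.25, MAP2 at 3.89 and NCAM1 at -1.08. Immune markers had 4 of 13 higher and 2 lower at mean counts of 0.484 to 33.8, and 5 of the 13 had no measurable level in the combination. Of 10 adipocyte and liver markers 2 were higher. Of those called higher 2 immune markers and 1 adipocyte or liver marker had no measurable level in DMSO, and the share higher was close to the 29.8% of all genes for the immune markers and below it for the adipocyte and liver markers. The part of other cell states in the results above was not tested.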

How the data were processed

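Poly(A)-selected RNA of 24 cultures (2 cell lines, 4 treatments, 3 replicates each) was sequenced by the submitters. The submitters' processing notes name the build GRCh38 and, without roles, the tools DESeq2 1.16.1, featureCounts 1.5.1, HISAT2 2.1.0, Trim Galore 0.4.2 and DESeq. Neither they nor the labels give the model formula, the annotation or the strand setting of the counting. The 4 deposited tables hold, per the file headers, columns named as DESeq2 names them. The mean normalised count (a signal averaged over all libraries) was made by the authors by dividing counts by size factors, the usual meaning of that DESeq2 column. The standard errors of the log2 fold changes, the Wald scores and the p-values with their adjusted values were also made by the authors and are used as deposited. No table holds values per library, so the depth per sample is unknown and replicates could not be compared; the p-values measure the spread between cultures, which may in part be technical.

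From these, the log2 change was computed as the Wald score times its standard error (Python 3.11.15, numpy 2.4.6, pandas 2.3.3, scipy 1.17.1, matplotlib 3.10.9). The changes of 3 tables closed to within 0.00152 log2, so they were taken to come from 1 fit. Group variances were obtained by solving the tables' standard errors, and 1 gene gave a negative variance. From these variances both drugs were compared with dasatinib by a Wald test with Benjamini-Hochberg adjustment over 29639 genes, which assumes that the dasatinib table is from the same fit. No measurable level was found for 7943 genes in DMSO and for 4578 with both drugs. Counts of list members are over the members found, and medians are over those measured with both drugs and in DMSO. The named genes are the 10 largest changes (mean count of at least 100) and 10 largest statistics each way, up to 6 genes with no DMSO level, 4 members per list with the largest statistics and any single member against the rest, the methyltransferases and dasatinib targets, and 6 genes each way beyond each single drug. Members and lists were chosen with earlier results of these data known. Sex-linked marker genes (61) and 27 names altered to dates were not named. Gene positions are from GENCODE v29 on GRCh38 and promoters from RefSeq on GRCh38.p14; symbols were matched, also through synonyms. The computations were tested on simulated data. Other thresholds, filters and centrings were tried.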

Additional observations from a re-analysis of the deposited data

How the results depend on the processing

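The counts of genes called moved by more than 1.5 times under 3 settings. With a change of at least 1 log2 required, 5049 genes were higher and 1084 lower with both drugs than in DMSO, 337 higher and 1115 lower than with SGI-110, and 5179 higher and 690 lower than with dasatinib. With a mean count of at least 50 required, 4663 genes were higher with both drugs than in DMSO and 4014 higher than with dasatinib. This setting left out the calls at lower mean counts and kept the adjusted p as it was. Taking the sum of both squared standard errors in place of the solved variances left 4804 genes higher than with dasatinib, as that sum counts the DMSO variance in both terms. The other settings (an adjusted p of 0.01, adjustment over all genes, recentring, genes measured in both groups) stayed within 1.5 times each count. Adjustment over all genes and recentring moved none of the 258 named genes across the threshold or to the other sign. Over all members in place of the measured ones 17 of 56 list medians moved by more than the median standard error. No paired analysis was possible because the tables hold no values per library, and for the same reason no replicate could be left out. Genes with low counts limit the comparison: the smallest changes that pass there are far larger than among abundant genes. The identity of the cell line, and whether the other line responds alike, cannot be had from these tables.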

Other observations

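Among all genes tested 29.8% were higher with both drugs than in DMSO and 17.6% lower. These shares also cover genes not matched to a GENCODE type, so they are not the background of the types below. Among the types that GENCODE v29 assigns, 6264 of 15921 protein-coding genes were higher with both drugs than in DMSO (39.3%) and 3878 were lower (24.4%). Of 702 long intergenic non-coding RNAs 233 were higher (33.2%) and 79 lower (11.3%), at a median mean count of 7.11, against 361 for protein-coding genes. Of 662 antisense RNAs 154 were higher (23.3%) and 85 lower (12.8%), at a median mean count of 9.24. Of all genes tested, 18.8% were higher and 1.79% lower at mean counts under 10, and 41.4% and 13.6% at 10 to 100. Since the strand setting of the counting is not known, reads of their partner genes cannot be told apart from those of the antisense RNAs. Of 1282 processed pseudogenes 136 were higher (10.6%) and 51 lower (3.98%), at a median mean count of 2.42. The share higher was below the 18.8% of all genes at mean counts under 10, and the share lower was above the 1.79%. Many processed pseudogenes have near-identical parent genes that can share their reads.

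By chromosome, the share of tested genes that was higher with both drugs ran from 27.2% on chromosome 13 (118 of 434) to 41.5% on chromosome X (344 of 828), which carries many of the cancer-testis families. On chromosome X 236 of the 828 genes had no measurable level in DMSO. The share on chromosome 11 was 38.4% and on chromosome 19 it was 37.2%. The chromosome shares cover only the 20534 tested genes with an unambiguous GENCODE place on an autosome or X. The 29.8% given above covers all 27915 tested genes, so it is not the background of the chromosome shares. No difference between chromosomes was tested.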
